A study of Mus musculus with 2 samples.

Results

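The group of miR-15, miR-16, miR-103 and miR-107 comprises 8 mature miRNAs: mmu-miR-15a-5p, mmu-miR-15b-5p, mmu-miR-15b-3p, mmu-miR-16-5p, mmu-miR-195a-5p, mmu-miR-497a-5p, mmu-miR-103-3p and mmu-miR-107-3p. They were taken by name from the 1905 mature miRNAs listed in both count tables of a small RNA sequencing experiment on mouse testis, without miR-322, and each had at least 90 reads over both libraries. The tested library came from testes of C57BL/6 males at postnatal day 60 that had received a mixture of endocrine-disrupting chemicals (EDCs), namely 3 phthalates at 0.3 mg per kg and day each and 2 alkylphenols at 0.05 mg per kg and day each. It was given in drinking water, first to the mothers from post-coital day 0.5 and later to the male offspring. The control library came from males of the same strain and age whose water held the vehicles, DMSO and ethanol. Each library was made from RNA pooled in equal parts over n = 3, where a unit is a treated mother with its male offspring, so that the spread between animals cannot be seen and the comparison has no replicate check.

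MicroRNAs are short RNAs cut from hairpins, and they repress mRNAs that pair with their seed, the bases 2 to 8 from the 5′ end. The miR-15/16 family is known for slowing the cell cycle through cyclins D1, D3 and E1 and for repressing the survival factor Bcl2, and its loss at the locus of miR-15a and miR-16-1 is known from human chronic lymphocytic leukaemia. miR-103 and miR-107 lie in introns of pantothenate kinase genes, which start the synthesis of coenzyme A, and they are known to repress Dicer and, in mouse liver and fat, to lower insulin sensitivity through caveolin 1.

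The mature sequences are shown because the seed sets which members can act on the same targets. They are from RefSeq on GRCm38.p6, which held all 8 members, and run from 5′ to 3′ with the seed in capitals.
mmu-miR-15b-5p: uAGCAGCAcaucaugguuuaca
mmu-miR-15a-5p: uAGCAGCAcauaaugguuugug
mmu-miR-16-5p: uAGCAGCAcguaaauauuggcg
mmu-miR-195a-5p: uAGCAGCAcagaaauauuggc
mmu-miR-497a-5p: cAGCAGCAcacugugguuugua
mmu-miR-103-3p: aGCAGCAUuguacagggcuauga
mmu-miR-107-3p: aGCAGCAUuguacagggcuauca
mmu-miR-15b-3p: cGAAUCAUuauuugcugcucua

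The first 5 sequences share 1 seed, that of miR-15/16. The same 7 letters begin 1 base earlier in miR-103-3p and miR-107-3p, at position 1 instead of 2, so that their seed is shifted by a base. miR-15b-3p, cut from the opposite arm of the same hairpin as miR-15b-5p, has a seed of its own. Counted from 1 at the 5′ end, miR-15b-5p differs from miR-15a-5p at 4 positions (C12A, A20G, C21U and A22G) and from miR-16-5p at 8 of 22 positions. miR-16-5p and miR-195a-5p differ at 2 of 21 positions (G10A and U11G), and miR-103-3p and miR-107-3p at only 1 of 23 (G22C). A read of miR-107-3p that ends before position 22 therefore cannot be told from one of miR-103-3p.

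The 8 members are cut from 9 hairpins. Mir15b (chr3:69009772-69009835, plus strand) and Mir16-2 (chr3:69009902-69009996) lie 66 bases apart in an intron of Smc4, a condensin subunit gene on the same strand. Mir16-1 (chr14:61631880-61631972, minus strand) and Mir15a (chr14:61632027-61632110) lie 54 bases apart within the long non-coding gene Dleu2, where Mir15a is intronic and Mir16-1 overlaps an annotated exon. Mir497 (chr11:70234717-70234800) and Mir195a (chr11:70235042-70235135) lie 241 bases apart on the plus strand, with Mir497b on the opposite strand of Mir497. Mir103-1 (chr11:35782396-35782481) is in an intron of Pank3, Mir103-2 (chr2:131288052-131288137) in an intron of Pank2, and Mir107 (chr19:34820687-34820773, minus strand) in an intron of Pank1. The hairpins of the chromosome 3 pair are given next, with both mature arms in capitals, since the miRNA that changed most in the group is cut from the first of them.
Mir15b: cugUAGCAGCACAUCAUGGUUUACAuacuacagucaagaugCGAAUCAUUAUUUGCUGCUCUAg
Mir16-2: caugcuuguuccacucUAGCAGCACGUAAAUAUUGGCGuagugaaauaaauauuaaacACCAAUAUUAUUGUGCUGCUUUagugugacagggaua

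The libraries held 501539 mature miRNA reads in exposed mice and 550261 in control mice. Reads were divided by size factors of 0.937 for exposed and 1.07 for control mice, and the log2 ratio is that of exposed over control mice, with an exact 95% interval. They cover no error other than that of counting reads. The words rose and fell are kept for an adjusted p under 0.05 in an exact binomial test on reads, over all 484 miRNAs with at least 10 reads, together with a size minimum of 0.5 on the log2 scale. This test compares those libraries and not the conditions. Germ cell markers identify both libraries as testis: the 6 chosen, led by miR-34c-5p, summed to 99132 reads in exposed and 113448 in control mice (log2 ratio −0.01, −0.02 to 0.00), and miR-122-5p of liver had 1 and 0 reads. The germ cell markers went both ways, with 3 above 0 and 3 below, from −0.08 to 0.27. That range holds for these 6 only. Of other germ cell miRNAs, miR-34b-5p was at 0.60 and miR-878-3p at −0.63, both past the size minimum.

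miR-15b-5p, which represses cyclin genes, was lower in the library of exposed mice by more than the counting error of its reads. It had 754 reads in the exposed library, against 1270 in the control library, which is 804 normalised reads in exposed and 1190.5 in control mice. The log2 ratio was −0.57 (−0.70 to −0.43), or 0.676 times the control level (0.617 to 0.740), with an exact binomial adjusted p = 1.36e-16. With a spread estimated between the libraries the call was lost (edgeR exact test, p = 0.0178, adjusted p = 1). That spread takes in any difference due to the exposure. The share of miR-15b-5p in all mature miRNA reads was 0.150% in exposed and 0.231% in control mice. By abundance miR-15b-5p ranked 90th in exposed mice, against 73rd in control mice. Counting from the lowest log2 ratio, it was 55th of the 484 tested miRNAs and 15th of the 317 with at least 50 reads. It was the only one of the 8 members that fell, against 11 of the 484 tested (2.27%), and no member rose, against 3 of the 484 (0.620%).

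miR-15b-3p, the other arm of the same hairpin, had 35 reads in exposed mice and 55 in control mice. Its log2 ratio was −0.47 (−1.12 to 0.17), with an exact binomial adjusted p = 0.352. This estimate lies close to that of miR-15b-5p but its interval includes 0, so that a difference was not detectable at this depth. Set against each other, which needs no scaling between the libraries, the log2 ratio of miR-15b-5p was 0.10 below that of miR-15b-3p (difference −0.10, −0.75 to 0.57). The 5p arm gave 95.6% of the reads of both arms in exposed mice (93.9 to 96.9%) and 95.8% in control mice (94.6 to 96.9%, Clopper-Pearson).

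**Figure D1:**
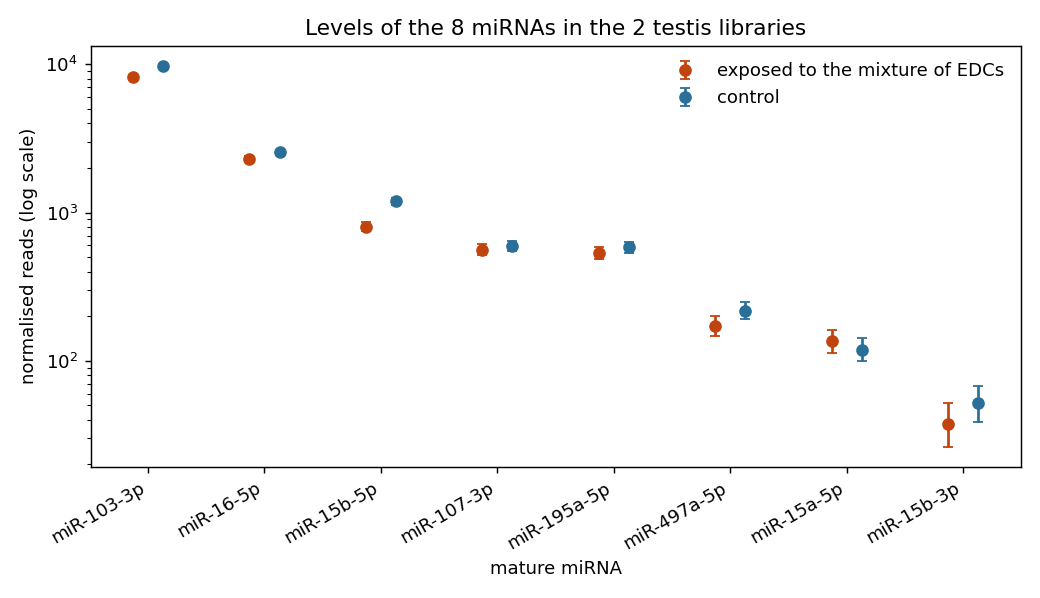
Normalised reads (log scale) of the 8 members in the library of exposed mice (orange, left of each pair) and of control mice (blue, right), with 95% Poisson intervals of the reads as error bars. miR-103-3p is the most abundant member in both libraries and miR-15b-3p the least, and the gap is clearest for miR-15b-5p at 804 in exposed and 1190.5 in control mice.

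miR-16-5p, the most abundant member with the miR-15/16 seed, had 2165 reads in exposed and 2717 in control mice. Its log2 ratio was −0.14 (−0.22 to −0.06) with an exact binomial adjusted p = 0.00555, which puts it below control but under the size minimum. The same mature sequence is cut from Mir16-1 and Mir16-2, so that its reads cannot be assigned to either locus. A read that matches both hairpins may be counted at each of them. The count was odd in both libraries, so that not every read was counted at both, but nearly all may have been. The exact test and its interval take every count as a separate read. Reads counted at both hairpins would make the interval too narrow and p too small. Compared with miR-16-5p, the log2 ratio of miR-15b-5p was lower by 0.42 (difference −0.42, −0.58 to −0.27), with the interval clear of 0. Their hairpins Mir15b and Mir16-2 are neighbours on chromosome 3.

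miR-15a-5p, the closest in sequence to miR-15b-5p, had 127 reads in exposed and 127 in control mice. After scaling the log2 ratio was 0.19 (−0.18 to 0.55, exact binomial test, adjusted p = 0.591), and it was the only member above 0. The log2 ratio of miR-15b-5p lay 0.75 below that of miR-15a-5p (difference −0.75, −1.14 to −0.36). This was the widest difference among the 28 pairs of members. For miR-15a-5p against miR-16-5p the difference was 0.33 (−0.05 to 0.70), an interval that includes 0.

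miR-195a-5p and miR-497a-5p come from 1 locus on chromosome 11, and miR-195 is known in the mouse heart for stopping cell division after birth. miR-195a-5p had 500 reads in exposed and 621 in control mice (log2 ratio −0.13, −0.30 to 0.05, exact binomial test, adjusted p = 0.364). miR-497a-5p had 161 reads in exposed and 233 in control mice. Its log2 ratio was −0.35 (−0.65 to −0.05), and the exact binomial test gave p = 0.0201, or 0.0972 once adjusted, so that it did not pass. The log2 ratio of miR-497a-5p was 0.22 below that of miR-195a-5p, with an interval that includes 0 (difference −0.22, −0.57 to 0.12). miR-497b, from the opposite strand of Mir497, had 0 reads in exposed and 2 in control mice.

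miR-103-3p was the deepest member, with 7714 reads in exposed and 10357 in control mice, or 1.54% and 1.88% of the reads of those libraries. Its log2 ratio was −0.24 (−0.28 to −0.20, exact binomial test, adjusted p = 1.01e-26), a level 0.848 times that of control mice and under the size minimum. miR-107-3p, which shares its seed and differs by a single base, had 528 reads in exposed and 638 in control mice (log2 ratio −0.09, −0.26 to 0.08, exact binomial test, adjusted p = 0.593). The difference between miR-103-3p and miR-107-3p was −0.15 (−0.33 to 0.02), with 0 inside the interval, and miR-107-3p took 6.41% of the reads of both miRNAs in exposed mice (5.89 to 6.96%) and 5.80% in control mice (5.37 to 6.26%). miR-103-3p is cut from hairpins in Pank2 and Pank3, and its reads cannot be assigned to either. As for miR-16-5p, reads counted at both hairpins would make its interval too narrow and p too small. A read too short to tell miR-103-3p from miR-107-3p may also count for both. How often this happened is not known, and it would bear on their shares and difference.

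**Figure D2:**
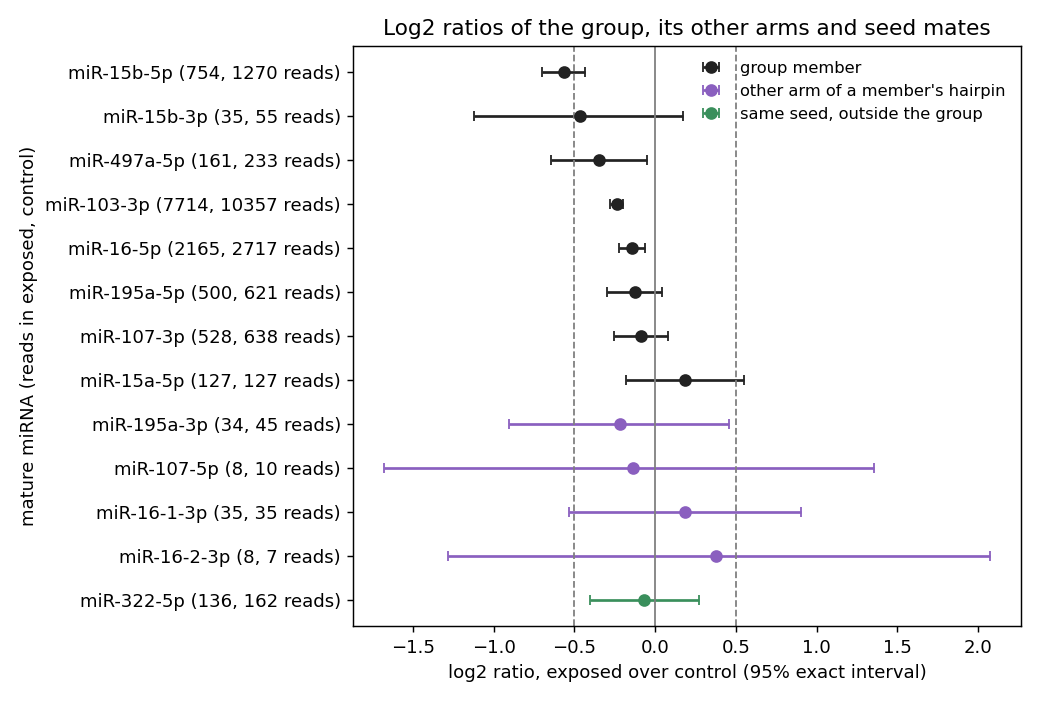
Log2 ratio of exposed over control mice for the 8 members (black), the other arms of their hairpins with at least 10 reads (purple) and miR-322-5p, which has the same seed (green); bars are exact 95% intervals and dashed lines mark 0.5 in size. miR-15b-5p alone lies past the dashed line with an interval clear of 0, and the arms with few reads have intervals that span both lines or nearly so.

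At any size, 3 of the 8 members were lower at an adjusted p under 0.05 from the exact binomial test (miR-15b-5p, miR-16-5p and miR-103-3p), against 45 of the 484 tested (9.30%). No member was higher at any size, against 40 of the 484 (8.26%). These shares include miRNAs with far fewer reads than any member. When only the 317 miRNAs with at least 50 reads were tested, 47 were lower and 41 higher at any size, and the same 3 members were lower. The balance over all miRNAs moved with the scaling, with 77 lower and 30 higher by the upper quartile, 69 and 34 by total reads, and 39 and 47 by TMM. The 3 lower members also had the most reads of the 8. Reads counted at both hairpins would make p too small for miR-16-5p and miR-103-3p, so that this count of 3 may be too high. Of the 8 log2 ratios 7 lay below 0, with a median of −0.19 and a range from −0.57 to 0.19, whereas 54.3% of all tested miRNAs lay below 0, with a median of −0.04. The SD of the members' log2 ratios was 0.24, and that of the 317 miRNAs with at least 50 reads was 0.29.

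The reads were also summed. The 5 members with the miR-15/16 seed had 3707 reads in exposed and 4968 in control mice (log2 ratio −0.24, −0.30 to −0.17). Without miR-15b-5p the other 4 had 2953 and 3698 reads in exposed and control mice, a log2 ratio of −0.14 (−0.21 to −0.07). miR-103-3p and miR-107-3p together had 8242 reads in exposed and 10995 in control mice (log2 ratio −0.23, −0.27 to −0.19). Reads counted at several hairpins would enter these sums more than once and make their intervals too narrow. All 8 members took 2.39% of the mature miRNA reads in exposed mice and 2.91% in control mice, and miR-103-3p gave most of these reads, so that the sum follows it.

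Within the miR-15/16 seed the make-up differed between the libraries. miR-15b-5p gave 20.3% of the reads of the 5 miRNAs in exposed mice (19.1 to 21.7%) and 25.6% in control mice (24.4 to 26.8%). miR-16-5p gave 58.4% in exposed mice (56.8 to 60.0%) and 54.7% in control mice (53.3 to 56.1%). Shares of 1 total are not independent, and miR-16-5p itself was not higher in exposed mice. Reads of miR-16-5p counted at both its hairpins would raise its share in each library and lower the other shares. By how much is not known. With miR-15b-5p left out, a step chosen after the values were seen, miR-16-5p gave 73.3% of the reads of the other 4 in exposed mice (71.7 to 74.9%) and 73.5% in control mice (72.0 to 74.9%). The shares of miR-195a-5p (13.5% in exposed and 12.5% in control mice), miR-497a-5p (4.34% and 4.69%) and miR-15a-5p (3.43% and 2.56%) had intervals that overlapped. Overlap does not show that shares were equal. For miR-15a-5p it was slight, with 2.86 to 4.06% in exposed and 2.14 to 3.03% in control mice.

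**Figure D3:**
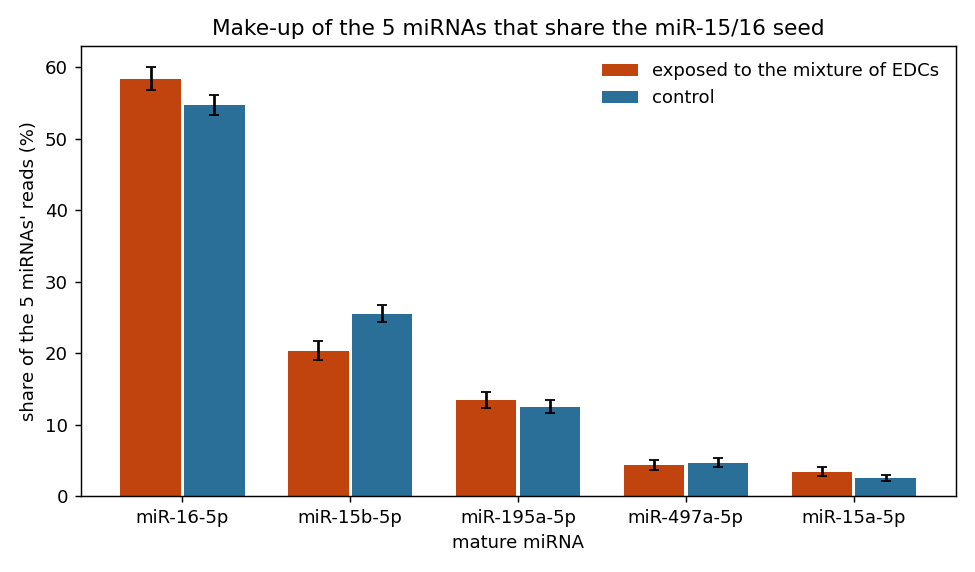
Share of each miRNA in the summed reads of the 5 members that carry the miR-15/16 seed, in the library of exposed mice (orange, left bar) and of control mice (blue, right bar), with exact 95% binomial intervals. miR-15b-5p gives 20.3% in exposed and 25.6% in control mice, and miR-16-5p gives 58.4% and 54.7%. Reads of miR-16-5p counted at both its hairpins would raise its share and lower the others.

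The 28 pairs of members were compared by the difference of their log2 ratios, with exact conditional 95% intervals that are not adjusted for the number of pairs. In 8 of the 28 pairs the interval left out 0. The same held for 15.3% of the pairs of all tested miRNAs and for 35.5% of the pairs of the 265 miRNAs with at least 90 reads, the minimum of the members, so that the count of 8 is nothing particular to the group. miR-15b-5p was below miR-15a-5p, miR-16-5p, miR-195a-5p (difference −0.44, −0.66 to −0.22), miR-103-3p (−0.33, −0.47 to −0.19) and miR-107-3p (−0.48, −0.69 to −0.26). From miR-497a-5p (−0.22, −0.54 to 0.11) and miR-15b-3p it was not distinguished. The other 3 pairs were miR-103-3p below miR-15a-5p (−0.43, −0.79 to −0.06), miR-103-3p below miR-16-5p (−0.10, −0.19 to −0.00) and miR-15a-5p above miR-497a-5p (0.53, 0.06 to 1.01). The interval of miR-103-3p against miR-16-5p barely left out 0. It would be wider if reads counted at both hairpins were counted once.

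The other arms of the hairpins tell loci apart where the member itself cannot. Of the 8 other arms, 4 had the 10 reads needed for the test, and none of them rose or fell. miR-16-1-3p, which marks the locus on chromosome 14, had 35 reads in exposed and 35 in control mice (log2 ratio 0.19, −0.53 to 0.90), and miR-16-2-3p, which marks that on chromosome 3, had 8 in exposed and 7 in control mice (0.38, −1.28 to 2.07). miR-195a-3p had 34 and 45 reads in exposed and control mice (−0.22, −0.90 to 0.46), close to its partner arm. miR-107-5p had 8 and 10 reads (−0.14, −1.68 to 1.36), while miR-15a-3p had 2 and 6, miR-497a-3p 0 and 1, miR-103-2-5p 1 and 0, and miR-103-1-5p 0 in each library, all too few to test. A count of 0 allows up to 0.000736% of the reads in exposed mice and up to 0.000670% in control mice, the upper ends of the Clopper-Pearson intervals.

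Products that name a single locus were summed as well. Those of chromosome 3 (miR-15b-5p, miR-15b-3p and miR-16-2-3p) had 797 reads in exposed and 1332 in control mice, a log2 ratio of −0.55 (−0.68 to −0.43), and miR-15b-5p gave nearly all of them. Those of the paralogous locus on chromosome 14 (miR-15a-5p, miR-15a-3p and miR-16-1-3p) had 164 reads in exposed and 168 in control mice, a log2 ratio of 0.15 (−0.17 to 0.47). The difference between these loci was −0.71 (−1.05 to −0.36), with the interval clear of 0. It largely repeats the difference between miR-15b-5p and miR-15a-5p, which gave most reads of these sums. The 4 products of Mir497 and Mir195a lay between them, with 695 reads in exposed and 900 in control mice (−0.19, −0.33 to −0.04).

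Beyond the members, 5 mouse miRNAs in the RefSeq table have the miR-15/16 seed. miR-322-5p, which is X-linked, had 136 reads in exposed and 162 in control mice (log2 ratio −0.07, −0.41 to 0.27, exact binomial test, adjusted p = 0.908). miR-195b had 1 read in exposed and 0 in control mice, and miR-6342, miR-6353 and miR-6419 had 0 in both. None of these rose or fell, and miR-322-5p alone could be tested.

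**Figure D4:**
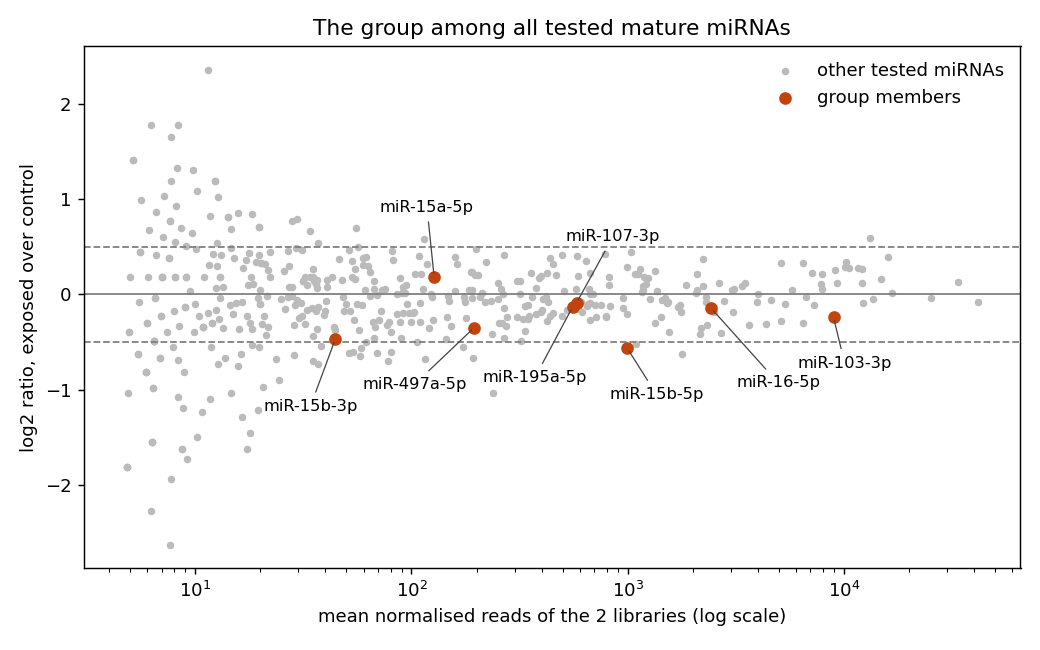
Log2 ratio of exposed over control mice against mean normalised reads (log scale) for the 484 tested miRNAs (grey), with the 8 members in orange; dashed lines mark 0.5 in size. miR-15b-5p at −0.57 sits near the lower edge of miRNAs of its abundance, and 6 of the other 7 members lie between −0.47 and 0.

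Members of the group are present in many cell types of a testis, blood included, and in a bulk library fewer cells of a type and less RNA per cell cannot be told apart. Of 3 red blood cell markers 2 lay above 0, summing to 165 reads in exposed and 159 in control mice (log2 ratio 0.24, −0.08 to 0.56). All 3 white blood cell markers lay below 0, with 66 reads in exposed and 96 in control mice (−0.35, −0.83 to 0.11). The endothelial pair went both ways (miR-126a-3p −0.18 and miR-126a-5p 0.06) and summed to 2948 reads in exposed and 3752 in control mice (−0.16, −0.23 to −0.09), and the pair from Sertoli and other somatic gonad cells to 2403 and 2407 (0.18, 0.10 to 0.27). Of that last pair, miR-202-5p had a log2 ratio of 0.21 and miR-202-3p one of 0. The markers of these 4 lists all had reads in both libraries. Their part in the values of the group was not tested.

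When the libraries were treated as a single group to estimate a dispersion, edgeR's exact test made no call after adjustment among the 484 miRNAs (0%), miR-15b-5p included. Before adjustment, with p up to 0.05 and the same size minimum, 16 of the 484 were lower (3.31%), and miR-15b-5p was the only member among them (p = 0.0178, exact test). The fall of miR-15b-5p thus exceeds the counting error of its reads, while with this wider spread it does not pass over all miRNAs. Because this spread takes in any difference due to the exposure, the lack of calls does not show that there was none.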

How the data were processed

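Counts of reads per mature miRNA were deposited by the authors as whole numbers without normalisation, for 1 library per condition. As described in the methods and in the submitters' processing notes, quality was checked with FastQC, adapters were trimmed with cutadapt, and reads under 12 nucleotides were dropped. The remaining reads were aligned to mm10 by bowtie with up to 3 mismatches, all best alignments being kept, and counted by HTSeq on miRBase v21. Tool versions were not given in the sources used here. Ambiguous reads (0.515% in exposed and 0.528% in control mice) were left out. No read was listed as not unique, so that a read matching several hairpins may count at each, and no molecular identifiers are named.

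The members, the lists and the size minimum were chosen with earlier results of these data known. Named were all members, the other arms of their hairpins, miRNAs of the same seed and the markers fixed for cell types, of which those of smooth muscle (summed log2 ratio 0.13) and striated muscle (0.33) were summed as well. In addition, miR-34b-5p and miR-878-3p were named after their values were seen. The striated pair went opposite ways, with miR-1a-3p at 0.43 and miR-133a-3p at −0.69, which fell. Size factors were medians of ratios as in DESeq. Each of the 484 miRNAs was tested by a 2-sided exact binomial test with Benjamini-Hochberg adjustment. Intervals were Clopper-Pearson, and exact conditional for differences between members. Scripts were tested on simulated data. Other scalings, filters, size minimums, a pseudocount of 0.5 and edgeR were tried. Positions and sequences are from RefSeq GRCm38.p6 (mm10) and host genes from GENCODE M21. Software was edgeR 4.0.16 under R 4.3.3, and scipy 1.17.1, pandas 2.3.3 and numpy 2.4.6 under Python 3.11.15.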

Additional observations from a re-analysis of the deposited data

How the results depend on the processing

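Under scaling by total reads, by TMM, by a total that omits the 10 most abundant miRNAs and by the upper quartile, miR-15b-5p remained called, with log2 ratios from −0.64 to −0.54, and so it did with a pseudocount of 0.5 and with no minimum of reads or one of 50. The number of members that fell was 1. It was 3 without the size minimum, 0 with a size minimum of 1, both by construction, and 0 with edgeR at an adjusted p, where the dispersion was estimated from the libraries. Over all miRNAs 11 fell and 3 rose, against 19 and 3 with the upper quartile, 17 and 3 with total reads and 9 and 4 with TMM. No member rose under any alternative run, and no direction was reversed among the members, the other arms and miR-322-5p under those run for them. miR-497a-5p, at −0.35, was lower at an adjusted p under 0.05 with scaling by total reads (−0.40, exact binomial test, adjusted p = 0.0369) and by the upper quartile (−0.42, adjusted p = 0.0247), both under the size minimum, against adjusted p from 0.0571 to 0.171 under the other scalings, filters and pseudocount. miR-16-5p was lower in all of these, with adjusted p up to 0.0404 (TMM). With edgeR both had an adjusted p of 1.

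No paired analysis was possible because each condition has 1 library, and for the same reason no replicate was left out. Depth limits miR-15b-3p and the other arms, whose intervals are wide.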
